A study of Mus musculus with 9 samples.

Results

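Iron enters, crosses and rests in gut epithelium through a small set of proteins, and the mRNA levels of 8 of their genes are described here over sorted populations of mouse colon epithelium. The genes are Trf, Tfrc, Slc11a2, Slc40a1, Fth1, Ftl1, Heph and Cybrd1, taken by symbol from a table of 24421 symbols. The set was selected on the level of Trf, which was known to be highest in the Lgr5-enriched population, so that the values of Trf are a description with no test. The goblet-enriched cells were positive for Epcam, Cd44 and Kit, the enterocyte-enriched cells were positive for Epcam, high for Cd66a and negative for Cd44, and the Lgr5-enriched cells were positive for Epcam and Cd44 and negative for Kit. All were sorted from the colon of adult mice labelled as female C57BL/6J, with no treatment or engineered allele named for any population, after dissociation with EDTA, DNase and collagenase and removal of leukocytes and endothelial cells by their antigens. There were 3 poly-A mRNA libraries per population, from 3 independent mice in all, per the series text. Values are TPM (transcripts per 1000000), which correct for transcript length and sum to the same total in every library, and are given as mean ± SD with n = 3 per population or per library in the order of replicates 1, 2 and 3.

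Iron from the blood is carried by transferrin and taken up through the transferrin receptor, which cycles between the cell surface and endosomes. In the absorptive cells of the duodenum, iron from the gut lumen is reduced by the ferrireductase Dcytb, the product of Cybrd1, imported by the divalent metal transporter of Slc11a2, and released into the blood by ferroportin, the product of Slc40a1, with the ferroxidase hephaestin, the product of Heph. Iron that stays in the cell is held in ferritin, a shell of heavy chains from Fth1, which oxidise iron, and light chains from Ftl1, which help it to mineralise. The colon absorbs much less iron than the duodenum.

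Several of these mRNAs are known to be controlled by iron through a hairpin, the iron-responsive element, to which iron regulatory proteins bind when iron is scarce. Bound near the start of an mRNA the proteins block its translation, and bound behind the coding sequence of the transferrin receptor mRNA they protect it from decay, so that mRNA and protein need not move together. Hairpins of this shape were looked for in protein-coding transcripts of the GENCODE M21 annotation of GRCm38, on the sense strand, with the letters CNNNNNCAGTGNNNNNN: an unpaired C, an arm of 5 bases, a loop of 6 bases and a second arm of 5 bases that pairs with the first, G-T pairs allowed. The sequences are shown because most genes lack such a hairpin, and each gives the hairpin with 6 further bases on either side, 5′ to 3′, as DNA, with the loop in capitals. Fth1 had a hairpin in the 5′ untranslated region at chr19:9982732-9982760 on the plus strand, Ftl1 at chr7:45459779-45459807 on the minus strand, and Slc40a1 at chr1:45925465-45925493 on the minus strand. Tfrc had 4 in its 3′ untranslated region, all on the plus strand, at chr16:32631219-32631247, chr16:32631598-32631626, chr16:32631663-32631691 and chr16:32631710-32631738.
Fth1: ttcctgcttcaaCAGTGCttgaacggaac
Ftl1: gtcttgcttcaaCAGTGTttgaacggaac
Slc40a1: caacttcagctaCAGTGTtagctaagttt
Tfrc site 1: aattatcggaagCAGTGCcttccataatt
Tfrc site 2: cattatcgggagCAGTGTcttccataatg
Tfrc site 3: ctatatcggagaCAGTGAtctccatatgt
Tfrc site 4: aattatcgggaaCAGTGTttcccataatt

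Thus 4 of the 8 genes had such a hairpin in an untranslated region. Over all 21877 protein-coding genes searched, 31 (0.142%) had one in the 5′ and 129 (0.590%) in the 3′ untranslated region. Among 87 other iron genes searched, Alas2 had one in the 5′ and Bola3 one in the 3′ untranslated region. The hairpin of Fth1 was in 4 of its 5 coding transcripts, that of Ftl1 in 1 of 2, that of Slc40a1 in 1 of 4 and those of Tfrc in 1 of 3. The table gives 1 value per symbol, so the level of a transcript with the hairpin cannot be read apart from the rest. No match was found in Trf, Slc11a2, Heph or Cybrd1, which says only that these letters with fully paired arms are not in their annotated coding transcripts. An iron-responsive element with an unpaired base in an arm would be missed, so these genes may still have one.

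Between 11.2 and 26.8 M reads per library fell in genes (M, times 1000000; lower bounds recovered from the values), with the most in Lgr5-enriched replicate 1. The summed level of 7 goblet markers was 44666 to 61259.8 TPM in the goblet-enriched, 14421 to 22671 TPM in the enterocyte-enriched and 1490.2 to 1652 TPM in the Lgr5-enriched libraries, so that goblet transcripts were also plentiful in the enterocyte gate. The sum of 7 enterocyte markers was 552 to 1028, 5207 to 8844 and 197 to 298 TPM in the same order, and that of 6 stem cell markers 133 to 226, 46.4 to 74.9 and 610.4 to 699 TPM. That of 5 enteroendocrine markers was 12.3 to 76.4, 144 to 234 and 154 to 295 TPM. Enterocyte-enriched replicate 1 had 0.128 TPM of Xist, which the inactive X chromosome of females transcribes, against 110.3 TPM or more in each other library, which goes against its female label. The goblet-enriched and Lgr5-enriched libraries of the same number were not low in Xist, so that the 3 libraries numbered 1 do not look like those of 1 female mouse, and values fitted with the replicate number as a block are given with that limit. Fewer cells of a type and less RNA per cell cannot be told apart in such bulk libraries.

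Differences were tested with limma on log2(TPM + 1), with p-values adjusted by Benjamini-Hochberg over 12888 genes and called below 0.05. A gene entered the test when 3 or more libraries had 1 TPM of it or more. Of the 8 genes, 7 passed this filter on low values and Cybrd1 did not. With Trf set aside, 2 of 6 genes (Tfrc and Slc40a1) were called lower in goblet-enriched than in Lgr5-enriched cells, where 34.3% of all genes tested were called (10.7% higher, 23.6% lower). In enterocyte-enriched against Lgr5-enriched cells 3 of 6 (Slc40a1, Heph and Fth1) were called higher, with 49.6% of all genes called (12.0% higher, 37.6% lower), and in goblet-enriched against enterocyte-enriched cells the same 3 were called lower, with 44.1% of all genes called (28.2% higher, 15.9% lower). Counted in either direction, the share of the set that was called was near that of all genes in each comparison, so these counts are no result about the set. The balance of higher and lower calls over all genes depended on the scaling. As deposited, 1384 genes were called higher and 3039 lower in goblet-enriched against Lgr5-enriched cells, 1549 higher and 4847 lower in enterocyte-enriched against Lgr5-enriched cells, and 3633 higher and 2054 lower in goblet-enriched against enterocyte-enriched cells. After median-of-ratios scaling the same comparisons gave 1850 higher and 1545 lower, 3028 higher and 2522 lower, and 2564 higher and 2741 lower. The median log2 fold change of all genes was -0.26, -0.35 and 0.20 as deposited and -0.05, 0.03 and 0.04 when scaled, and the median of the 6 iron genes as deposited was 0.03, 0.53 and -0.51.

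**Figure D1:**
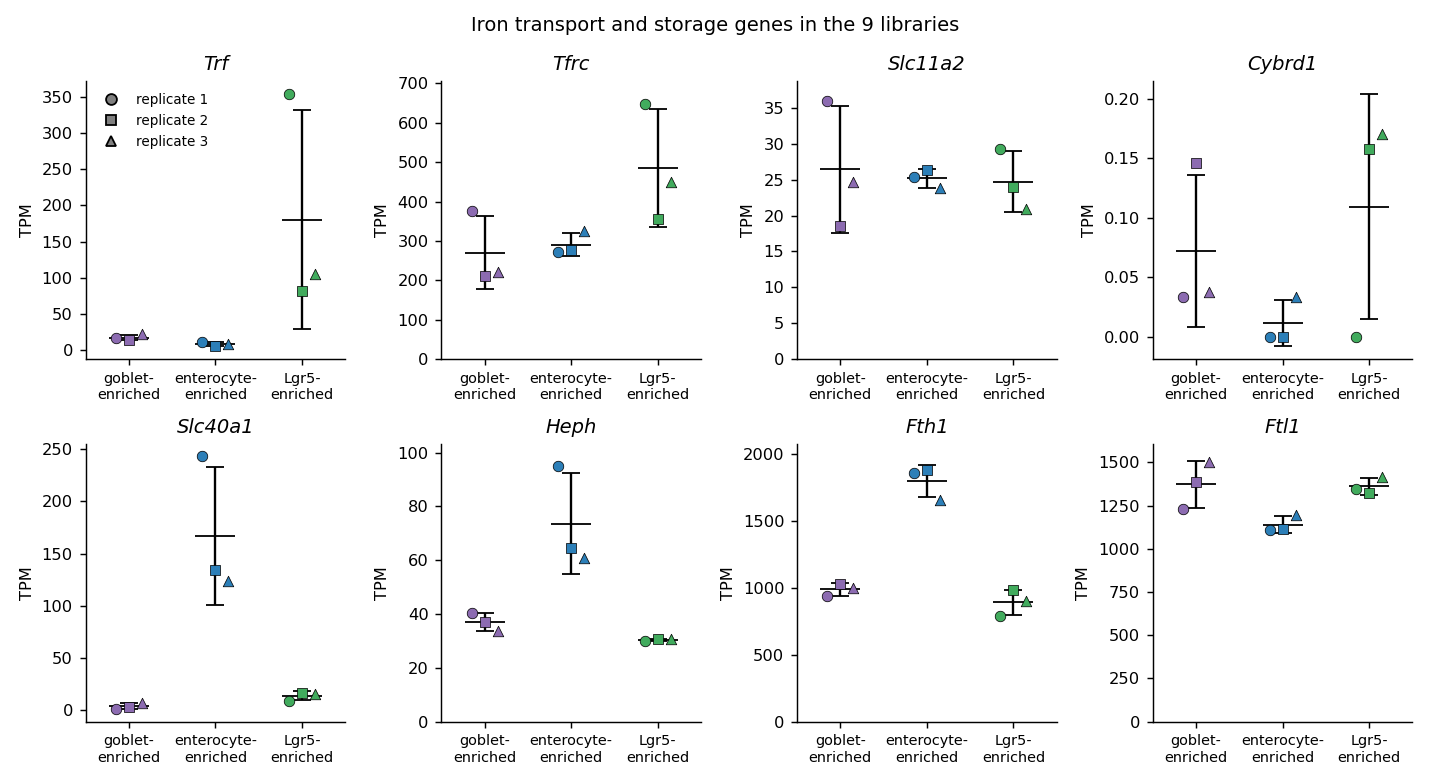
TPM of each of the 8 genes (one panel per gene, linear axes of different range) in every library, with bars for mean ± SD over 3 libraries. Slc40a1, Heph and Fth1 were highest in the enterocyte-enriched libraries, Trf in the Lgr5-enriched ones, and Cybrd1 stayed at or below 0.170 TPM.

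Transferrin, the iron carrier of blood plasma, is made chiefly by the liver. Trf (9:103204001-103230444 in GRCm38, minus strand) had 15.9, 13.4 and 21.3 TPM in the goblet-enriched libraries, 10.5, 4.60 and 7.77 TPM in the enterocyte-enriched libraries, and 355, 81.0 and 105 TPM in the Lgr5-enriched libraries. The order was thus enterocyte-enriched, goblet-enriched and Lgr5-enriched from low to high, and no library of one population reached into the range of another. The means were 16.9 ± 4.05 TPM in goblet-enriched, 7.63 ± 2.97 TPM in enterocyte-enriched and 180.3 ± 152 TPM in Lgr5-enriched cells, so that the Lgr5-enriched mean was 10.7 times the goblet-enriched and 23.6 times the enterocyte-enriched one. Lgr5-enriched replicate 1 carried much of this, and without it the Lgr5-enriched mean was 93.0 TPM. The values rest on 74 to 8643 reads per library. The 5 hepatocyte markers summed to 47.7 to 129.6 TPM in the goblet-enriched, 15.5 to 40.6 TPM in the enterocyte-enriched and 55.9 to 141 TPM in the Lgr5-enriched libraries. Most of each sum was Ttr, which encodes the plasma carrier transthyretin and had 40.8 to 108, 15.2 to 38.4 and 53.2 to 137 TPM in the same order. Albumin mRNA (Alb) had 6.78 to 21.0 TPM in the goblet-enriched, 0.305 to 1.79 TPM in the enterocyte-enriched and 2.63 to 3.63 TPM in the Lgr5-enriched libraries, and Apoa1, Serpina1a and Fgb had at most 1.91 TPM in any library. The part of these transcripts in the Trf levels was not tested. A gene model of the annotation, Gm20425, shares 26307 bases and the strand with Trf, and reads of the pair could not be separated here.

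Among 9282 genes with a mean of at least 10 TPM, those whose log2 level followed Trf most closely over the 9 libraries included Abcf2, Ppil3, Ahsa1 and Ska2, with Pearson r of 0.985 to 0.989. Ahsa1, which encodes an activator of the chaperone Hsp90, averaged 150 ± 14.7 TPM in goblet-enriched, 120 ± 9.45 TPM in enterocyte-enriched and 253 ± 38.4 TPM in Lgr5-enriched cells. Ska2, which encodes a protein of the spindle and kinetochore, averaged 8.16 ± 0.986, 4.94 ± 0.463 and 17.3 ± 5.67 TPM in the same order. The correlations are a description over libraries that share population and mouse, and these 4 genes spanned a narrower range than Trf.

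The transferrin receptor was plentiful in all populations and highest in the Lgr5-enriched one. Tfrc (16:32608920-32632794, plus strand) had 377, 212 and 221 TPM in the goblet-enriched libraries, 272, 276 and 324 TPM in the enterocyte-enriched libraries, and 649, 356 and 450.3 TPM in the Lgr5-enriched libraries. Goblet-enriched replicate 1 reached above Lgr5-enriched replicate 2, whereas no enterocyte-enriched library reached the Lgr5-enriched range. The means were 269.9 ± 92.7 TPM in goblet-enriched, 291 ± 28.7 TPM in enterocyte-enriched and 485 ± 149 TPM in Lgr5-enriched cells. Tfrc was called lower in goblet-enriched than in Lgr5-enriched cells, with a log2 fold change of -0.85 (SE 0.26; limma adjusted p = 0.0345). That call was lost in 7 of 18 alternative treatments of the data, among them median-of-ratios scaling (adjusted p = 0.137 by limma) and leaving out goblet-enriched replicate 2 (0.111), goblet-enriched replicate 3 (0.107), Lgr5-enriched replicate 1 (0.0931) or Lgr5-enriched replicate 3 (0.0812). In enterocyte-enriched against Lgr5-enriched cells the log2 fold change was -0.70 (SE 0.26), which was not called by limma (adjusted p = 0.0526) but was called with the replicate number as a block (adjusted p = 0.0178). It was also called without goblet-enriched replicate 1 (0.0219) or Lgr5-enriched replicate 2 (0.0283), and had an adjusted p of 0.448 after median-of-ratios scaling, all by limma. Goblet-enriched and enterocyte-enriched cells did not differ beyond their spread, with a log2 fold change of -0.15 and a 95% interval of -0.75 to 0.44 (limma adjusted p = 0.660). Leaving out replicate 1 of all populations made this a call, at -0.46 (limma adjusted p = 0.0370).

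Transferrin receptor is known to be high in dividing cells, and the summed level of 6 proliferation markers was 448 to 602 TPM in goblet-enriched, 207 to 353 TPM in enterocyte-enriched and 900.0 to 1322 TPM in Lgr5-enriched libraries. The sums were highest in the Lgr5-enriched population, as Tfrc was, but were higher in goblet-enriched than in enterocyte-enriched libraries, where the Tfrc means were close. Their part in the Tfrc levels was not tested. Erythroid cells, which are also rich in the receptor, left few transcripts: the 6 globin genes of the erythroid markers were listed at 0 in all 9 libraries, and the 8 markers summed to 0 to 0.148 TPM in goblet-enriched, 1.01 to 1.90 TPM in enterocyte-enriched and 0.157 to 0.836 TPM in Lgr5-enriched libraries.

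No difference between populations was called for the genes of iron import from the lumen. Slc11a2 (15:100387898-100425072, minus strand) had 36.0, 18.6 and 24.7 TPM in the goblet-enriched libraries, 25.4, 26.4 and 23.8 TPM in the enterocyte-enriched libraries, and 29.3, 24.0 and 20.9 TPM in the Lgr5-enriched libraries. The ranges of all populations overlapped, and the goblet-enriched libraries were the most scattered. The means were 26.4 ± 8.85 TPM in goblet-enriched, 25.2 ± 1.29 TPM in enterocyte-enriched and 24.7 ± 4.21 TPM in Lgr5-enriched cells. The log2 fold change was 0.06 (95% interval -0.45 to 0.57) in goblet-enriched against Lgr5-enriched, 0.04 (-0.47 to 0.55) in enterocyte-enriched against Lgr5-enriched and 0.02 (-0.49 to 0.53) in goblet-enriched against enterocyte-enriched cells, with limma adjusted p of 0.866, 0.907 and 0.953. Differences within these intervals remain possible. The opposite strand of Slc11a2 carries Gm5475 over 2926 bases, which had at most 0.448 TPM in any library.

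Cybrd1, the lumen-facing ferrireductase (2:71117923-71142926, plus strand), was hardly detected. It had 0.0337, 0.146 and 0.0372 TPM in the goblet-enriched libraries, 0, 0 and 0.0335 TPM in the enterocyte-enriched libraries, and 0, 0.158 and 0.170 TPM in the Lgr5-enriched libraries. These values stand for 0 to 5 reads, and 3 reads, the limit that a count of 0 allows, were worth 0.0553 to 0.120 TPM depending on the library. No difference between populations was detectable at this depth, and none was tested.

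Ferroportin, the iron exporter, differed most of the tested members. Slc40a1 (1:45908068-45926523, minus strand) had 1.56, 2.91 and 6.76 TPM in the goblet-enriched libraries, 243, 134 and 124 TPM in the enterocyte-enriched libraries, and 8.93, 16.9 and 15.9 TPM in the Lgr5-enriched libraries. The 3 ranges did not overlap, with the goblet-enriched libraries lowest and the enterocyte-enriched ones far above both others. The means were 3.74 ± 2.70 TPM in goblet-enriched, 167 ± 66.1 TPM in enterocyte-enriched and 13.9 ± 4.34 TPM in Lgr5-enriched cells, and without goblet-enriched replicate 3 the goblet-enriched mean was 2.24 TPM. Slc40a1 was lower in goblet-enriched than in Lgr5-enriched cells by limma, with a log2 fold change of -1.76 (SE 0.42; adjusted p = 0.0127). It was higher in enterocyte-enriched than in Lgr5-enriched cells, at 3.47 (SE 0.42; limma adjusted p = 0.000346), a ratio of means of 12.0. It was lower in goblet-enriched than in enterocyte-enriched cells, at -5.23 (SE 0.42; limma adjusted p = 5.23e-05), and the enterocyte-enriched mean was 44.6 times the goblet-enriched one. All 3 calls held in each of the 18 alternatives tried for them. The call in goblet-enriched against Lgr5-enriched cells held only narrowly, with a limma adjusted p of up to 0.0497 when libraries were left out. The goblet-enriched against enterocyte-enriched value moved by more than 1.5 times only without replicate 1 of all populations, where it was -4.56.

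Ferroportin is also the exporter of macrophages, and the sort had gated out Cd45-positive and Cd16/Cd32-positive cells. The 8 leukocyte and macrophage markers summed to 12.7 to 25.1 TPM in goblet-enriched, 20.1 to 251 TPM in enterocyte-enriched and 13.3 to 25.1 TPM in Lgr5-enriched libraries. Most of the high sums was Lyz2, a lysozyme gene of macrophages, with 232, 133 and 12.9 TPM in enterocyte-enriched replicates 1, 2 and 3, against at most 11.5 TPM in goblet-enriched and 12.7 TPM in Lgr5-enriched libraries. C1qa, a complement gene of tissue macrophages, had 3.27, 2.14 and 0.322 TPM in the enterocyte-enriched libraries, against at most 0.350 TPM in goblet-enriched and 0.164 TPM in Lgr5-enriched libraries. Adgre1, another macrophage marker, had 0.705, 1.25 and 0.107 TPM in the enterocyte-enriched libraries, against at most 0.175 TPM in goblet-enriched and 0.0636 TPM in Lgr5-enriched libraries. Cd68 and Itgam were not higher there: Cd68 had 9.28 to 11.5 TPM in goblet-enriched, 5.03 to 11.5 TPM in enterocyte-enriched and 7.54 to 11.7 TPM in Lgr5-enriched libraries, and Itgam had 1.65 to 2.96, 1.56 to 2.62 and 1.29 to 1.94 TPM. The pan-leukocyte gene Ptprc had at most 1.20, 0.153 and 0.0626 TPM in the same order. In goblet-enriched cells Slc40a1 was highest in replicate 3, which also had the most of the enterocyte marker Car1, at 49.6 TPM against 6.46 and 4.55 TPM in goblet-enriched replicates 1 and 2. The part of either marker set in the Slc40a1 levels was not tested.

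Hephaestin, the ferroxidase that works with ferroportin, was also highest in the enterocyte-enriched libraries. Heph (X:96455359-96574485, plus strand) had 40.3, 37.2 and 33.6 TPM in the goblet-enriched libraries, 95.1, 64.7 and 60.8 TPM in the enterocyte-enriched libraries, and 30.1, 30.6 and 30.8 TPM in the Lgr5-enriched libraries. The ranges did not overlap, and the Lgr5-enriched libraries were nearly equal. The means were 37.0 ± 3.33 TPM in goblet-enriched, 73.6 ± 18.8 TPM in enterocyte-enriched and 30.5 ± 0.402 TPM in Lgr5-enriched cells. Heph was higher in enterocyte-enriched than in Lgr5-enriched cells by 1.21 on the log2 scale (SE 0.17; limma adjusted p = 0.000609) and lower in goblet-enriched than in enterocyte-enriched cells, at -0.95 (SE 0.17; limma adjusted p = 0.00230). Goblet-enriched and Lgr5-enriched cells were not called different, with a log2 fold change of 0.27 and a 95% interval of -0.12 to 0.65 (limma adjusted p = 0.252). Heph is X-linked, and the enterocyte-enriched library that goes against its female label had the highest value, 95.1 TPM; without it the enterocyte-enriched mean was 62.8 TPM. Hsf3 overlaps Heph on the opposite strand by 936 bases and had at most 0.631 TPM.

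**Figure D2:**
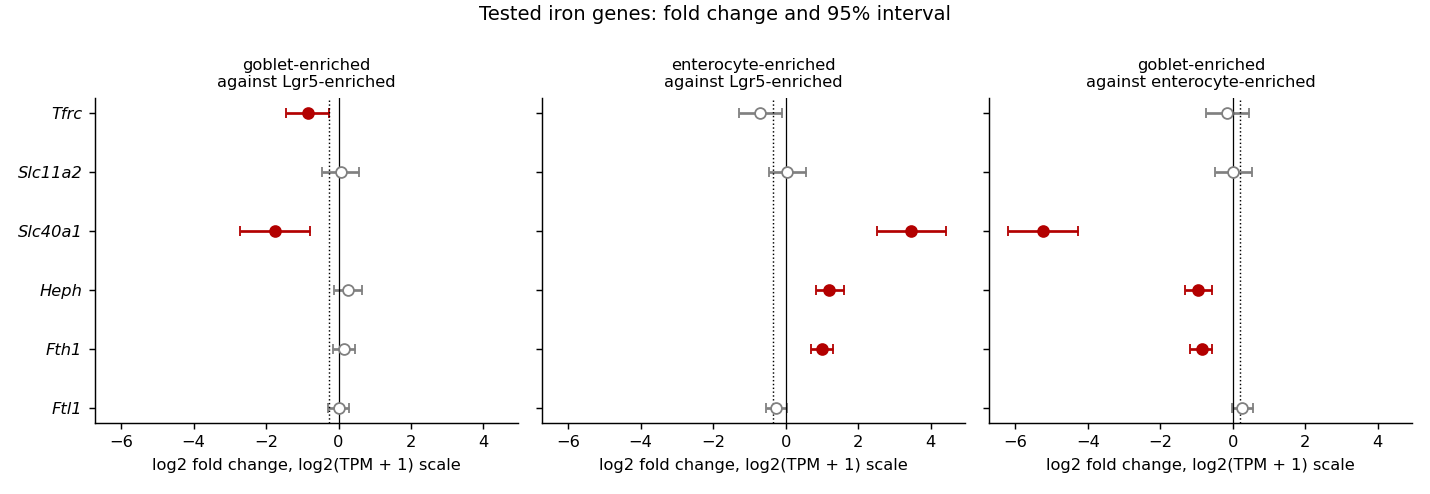
Log2 fold change of the tested genes in each comparison, from limma on log2(TPM + 1), with 95% intervals. Filled red points were called at an adjusted p below 0.05, open grey points were not, and the dotted line is the median of all 12888 genes tested. Slc40a1 spanned the widest range, from -5.23 to 3.47.

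The chains of ferritin were among the most abundant mRNAs and differed in pattern. Fth1 (19:9980598-9985098, plus strand) had 937, 1029.8 and 997 TPM in the goblet-enriched libraries, 1858, 1881 and 1659 TPM in the enterocyte-enriched libraries, and 793, 983 and 901 TPM in the Lgr5-enriched libraries. The enterocyte-enriched libraries stood apart, and the other populations overlapped. The means were 988 ± 46.8 TPM in goblet-enriched, 1799.6 ± 122 TPM in enterocyte-enriched and 892 ± 95.4 TPM in Lgr5-enriched cells, which placed Fth1 113th, 54th and 121st among all genes. Fth1 was higher in enterocyte-enriched than in Lgr5-enriched cells by 1.01 on the log2 scale (SE 0.14; limma adjusted p = 0.000481) and lower in goblet-enriched than in enterocyte-enriched cells, at -0.86 (SE 0.14; limma adjusted p = 0.00109). Goblet-enriched and Lgr5-enriched cells were not called different, at 0.15 with a 95% interval of -0.15 to 0.46 (limma adjusted p = 0.412).

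Ftl1 (7:45457944-45459884, minus strand) had 1227, 1388 and 1501 TPM in the goblet-enriched libraries, 1109, 1116 and 1195 TPM in the enterocyte-enriched libraries, and 1343, 1325 and 1417 TPM in the Lgr5-enriched libraries. The enterocyte-enriched libraries were the lowest, without overlap, and the others overlapped. The means were 1372 ± 137 TPM in goblet-enriched, 1139.9 ± 47.7 TPM in enterocyte-enriched and 1362 ± 48.6 TPM in Lgr5-enriched cells. No comparison was called by limma, with log2 fold changes of 0.01 (95% interval -0.29 to 0.30; adjusted p = 0.974) in goblet-enriched against Lgr5-enriched, -0.26 (-0.55 to 0.04; adjusted p = 0.133) in enterocyte-enriched against Lgr5-enriched and 0.26 (-0.03 to 0.56; adjusted p = 0.132) in goblet-enriched against enterocyte-enriched cells. The enterocyte-enriched against Lgr5-enriched value changed sign with scaling and was 0.16 after median-of-ratios scaling. After quantile normalization Ftl1 was called lower in enterocyte-enriched than in Lgr5-enriched cells (limma adjusted p = 0.0197) and higher in goblet-enriched than in enterocyte-enriched cells, at 0.38 (limma adjusted p = 0.0467). Without replicate 1 of all populations the value in goblet-enriched against enterocyte-enriched cells was 0.32 (limma adjusted p = 0.0300).

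The ratio of the chains within a library does not depend on the scaling of that library. The ratio of Fth1 to Ftl1 was 0.764, 0.742 and 0.664 in the goblet-enriched libraries, 1.68, 1.69 and 1.39 in the enterocyte-enriched libraries, and 0.590, 0.742 and 0.636 in the Lgr5-enriched libraries. Heavy chain mRNA exceeded light chain mRNA in every enterocyte-enriched library and in none of the others. The mean ratio was 0.723 ± 0.0524 in goblet-enriched, 1.58 ± 0.169 in enterocyte-enriched and 0.656 ± 0.0778 in Lgr5-enriched cells, which differed between populations (exact permutation test on the log2 ratio over 1680 arrangements, p = 0.0107). Between single populations the exact two-sided permutation p was 0.300 for goblet-enriched against Lgr5-enriched cells and 0.1, the smallest that 3 against 3 libraries allow, for each of the others. The sum of both chains was 2360 ± 174 TPM in goblet-enriched, 2939 ± 75.7 TPM in enterocyte-enriched and 2254 ± 102 TPM in Lgr5-enriched cells (exact permutation p = 0.0143 over the populations, on the log2 sum). All these permutation tests exchanged libraries without regard to replicate number, although same-numbered libraries deviated together. Their p-values carry that limit. The annotation names 14 further ferritin-like genes and pseudogenes, of which 1, Fthl17, had a row, listed at 0 in all libraries. Reads that such copies share with Fth1 and Ftl1 make the levels of both uncertain.

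**Figure D3:**
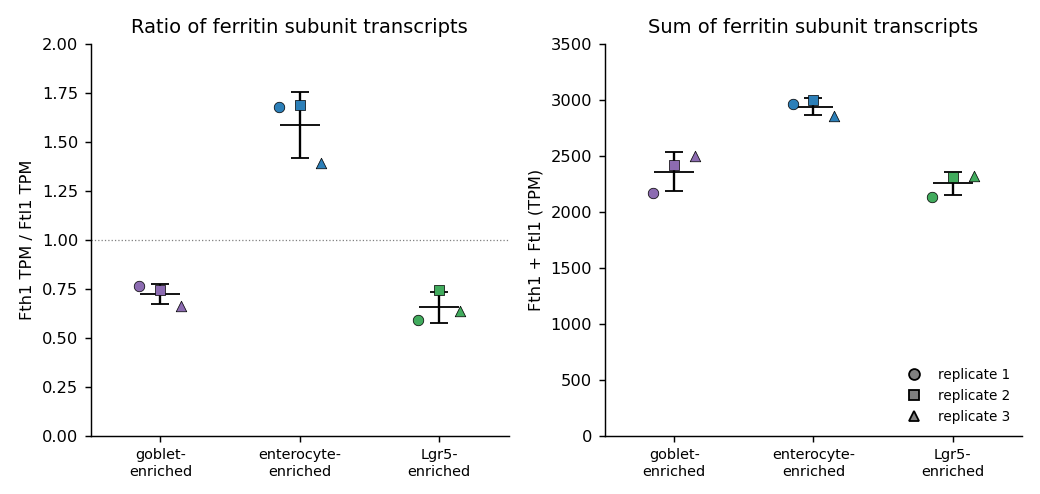
The ratio of Fth1 to Ftl1 (left, no unit, dotted line at equal levels) and the sum of both in TPM (right) in every library, with bars for mean ± SD over 3 libraries. The ratio was 1.39 to 1.69 in the enterocyte-enriched libraries and below 1 in all others.

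Around the 8 genes, 7 lists of other iron genes held 89 genes with a row, of which 75 were tested. Called higher and lower were 1 and 21 of them in goblet-enriched against Lgr5-enriched cells, 10 and 23 in enterocyte-enriched against Lgr5-enriched cells, and 15 and 12 in goblet-enriched against enterocyte-enriched cells. These are 22, 33 and 27 of 75 called, beside 34.3%, 49.6% and 44.1% of all genes tested. After median-of-ratios scaling the counts were 6 and 7, 21 and 10, and 12 and 21, so that the balance of higher and lower calls depended on the scaling. With the replicate block they were 5 and 31, 12 and 30, and 18 and 18. The block also raised the calls over all 12888 genes, to 1794 higher and 4563 lower in goblet-enriched against Lgr5-enriched cells. The block counts here and in each list are therefore not to be set beside the shares given, which are without the block, and are no result about the lists. The median log2 fold changes were -0.27, -0.27 and -0.05, beside -0.26, -0.35 and 0.20 over all genes tested.

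Among 13 other importers, reductases and exporters, 1 was called higher and 2 lower in goblet-enriched against Lgr5-enriched cells, 2 higher and 4 lower in enterocyte-enriched against Lgr5-enriched cells, and 4 higher and 2 lower in goblet-enriched against enterocyte-enriched cells. Over all genes the shares higher and lower were 10.7% and 23.6%, 12.0% and 37.6%, and 28.2% and 15.9%, which also stand beside each of the lists that follow. Frrs1, which encodes another ferric reductase, followed Slc40a1 in its order, with 7.37 ± 1.31 TPM in goblet-enriched, 50.4 ± 19.9 TPM in enterocyte-enriched and 27.1 ± 2.34 TPM in Lgr5-enriched cells. It was lower in goblet-enriched than in Lgr5-enriched cells, at -1.76 on the log2 scale (limma adjusted p = 0.00100), and lower than in enterocyte-enriched cells, at -2.56 (limma adjusted p = 9.51e-05). Slc39a8, a metal importer of the ZIP family that carries zinc, manganese and iron, had the opposite order of means. They were 91.1 ± 28.3 TPM in goblet-enriched, 13.3 ± 4.05 TPM in enterocyte-enriched and 52.1 ± 16.1 TPM in Lgr5-enriched cells. Slc39a8 was not called in goblet-enriched against Lgr5-enriched cells, whose libraries overlapped (68.5 TPM in goblet-enriched replicate 3, 70.4 TPM in Lgr5-enriched replicate 1). It was lower in enterocyte-enriched than in Lgr5-enriched cells, at -1.89 (limma adjusted p = 0.000892), and higher in goblet-enriched than in enterocyte-enriched cells, at 2.69 (limma adjusted p = 0.000159). In enterocyte-enriched against Lgr5-enriched cells median-of-ratios scaling turned the balance of calls in this list to 3 higher and 2 lower. With the replicate block 1 was called higher and 5 lower in goblet-enriched against Lgr5-enriched cells.

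Of 4 genes for ferritin cargo and iron chaperones, 0 were called higher and 1 lower in goblet-enriched against Lgr5-enriched cells, 0 and 3 in enterocyte-enriched against Lgr5-enriched cells, and 2 and 0 in goblet-enriched against enterocyte-enriched cells. Pcbp1, whose product brings iron to ferritin, had 567 ± 6.33 TPM in goblet-enriched, 341 ± 29.4 TPM in enterocyte-enriched and 539 ± 16.8 TPM in Lgr5-enriched cells, and was higher in goblet-enriched than in enterocyte-enriched cells by 0.73 on the log2 scale (limma adjusted p = 0.000867). Pcbp2 had 199 ± 20.8, 166 ± 32.1 and 314 ± 31.3 TPM in the same order and was lower than in Lgr5-enriched cells in goblet-enriched cells, at -0.66 (limma adjusted p = 0.0151), and in enterocyte-enriched cells, at -0.93 (limma adjusted p = 0.00173). Both had their lowest mean in the enterocyte-enriched population, where Fth1 had its highest. Pcbp2 was not called in goblet-enriched against enterocyte-enriched cells, whose libraries overlapped (180.1 TPM in goblet-enriched replicate 1, 188 TPM in enterocyte-enriched replicate 2). The Pcbp2 call in goblet-enriched against Lgr5-enriched cells was lost without Lgr5-enriched replicate 3 (limma adjusted p = 0.0615).

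Of 13 genes of iron sensing and systemic regulation, 0 were called higher and 1 lower in goblet-enriched against Lgr5-enriched cells, 1 and 3 in enterocyte-enriched against Lgr5-enriched cells, and 4 and 1 in goblet-enriched against enterocyte-enriched cells, beside 34.3%, 49.6% and 44.1% of all genes called. Epas1 encodes the hypoxia-inducible factor HIF-2 alpha, which drives Slc40a1, Slc11a2 and Cybrd1 in the mouse duodenum. It had 38.3 ± 11.8 TPM in goblet-enriched, 109 ± 13.2 TPM in enterocyte-enriched and 51.5 ± 19.9 TPM in Lgr5-enriched cells. It was higher in enterocyte-enriched than in Lgr5-enriched cells by 1.13 (limma adjusted p = 0.0115) and lower in goblet-enriched than in enterocyte-enriched cells, at -1.52 (limma adjusted p = 0.00325). Ireb2, which encodes an iron regulatory protein that binds the hairpins, had 58.6 ± 12.0, 39.6 ± 2.96 and 68.6 ± 6.25 TPM and was lower in enterocyte-enriched than in Lgr5-enriched cells, at -0.78 (limma adjusted p = 0.00320; 0.108 after median-of-ratios scaling). Fbxl5, whose product sends that protein to degradation when iron is plentiful, had 77.7 ± 6.60, 45.2 ± 3.25 and 75.3 ± 4.75 TPM and was higher in goblet-enriched than in enterocyte-enriched cells by 0.77 (limma adjusted p = 0.000925). Aco1, which encodes the other iron regulatory protein, had 75.7 ± 2.63, 79.6 ± 2.08 and 94.6 ± 4.74 TPM and was lower in goblet-enriched than in Lgr5-enriched cells, at -0.32 (limma adjusted p = 0.0355), a call lost in 10 of 18 alternatives, among them median-of-ratios scaling (0.554). Median-of-ratios scaling turned the balance of calls in this list, to 5 higher and 1 lower in enterocyte-enriched against Lgr5-enriched cells and 2 higher and 3 lower in goblet-enriched against enterocyte-enriched cells. With the replicate block the calls were 0 and 2 in goblet-enriched against Lgr5-enriched cells, 3 and 4 in enterocyte-enriched against Lgr5-enriched cells, and 4 and 3 in goblet-enriched against enterocyte-enriched cells.

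**Figure D4:**
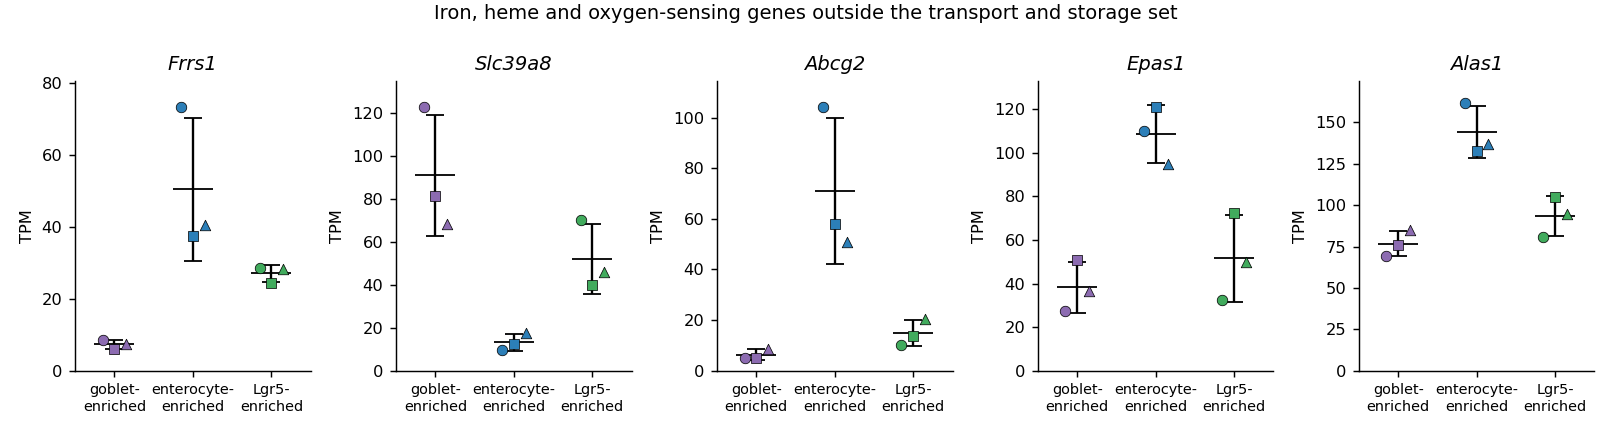
TPM of selected other iron genes in every library, with bars for mean ± SD over 3 libraries. Frrs1, Abcg2, Epas1 and Alas1 had their highest mean in the enterocyte-enriched population, and Slc39a8 its lowest.

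Of 8 genes for heme uptake, export and degradation, 0 were called higher and 5 lower in goblet-enriched against Lgr5-enriched cells, beside 10.7% and 23.6% over all genes. The calls were 4 and 2 in enterocyte-enriched against Lgr5-enriched cells, and 1 and 3 in goblet-enriched against enterocyte-enriched cells. In goblet-enriched against Lgr5-enriched cells they were 2 and 5 with the replicate block, and 1 and 1 after median-of-ratios scaling. Abcg2, an exporter of porphyrins and drugs at the luminal membrane, had 6.36 ± 2.09 TPM in goblet-enriched, 71.1 ± 28.9 TPM in enterocyte-enriched and 14.9 ± 5.25 TPM in Lgr5-enriched cells. It was higher in enterocyte-enriched than in Lgr5-enriched cells by 2.17 (limma adjusted p = 0.000874) and lower in goblet-enriched than in enterocyte-enriched cells, at -3.26 (limma adjusted p = 0.000121). Slc46a1, a folate transporter that also carries heme, was higher in enterocyte-enriched than in Lgr5-enriched cells by 1.46 (limma adjusted p = 0.00729), with 10.9 ± 0.555, 27.1 ± 6.49 and 9.93 ± 4.87 TPM in the goblet-enriched, enterocyte-enriched and Lgr5-enriched libraries. Of 8 heme synthesis genes, 0 were called higher and 1 lower in goblet-enriched against Lgr5-enriched cells (2 and 2 with the replicate block, 3 and 1 after median-of-ratios scaling), 1 and 4 in enterocyte-enriched against Lgr5-enriched cells (2 and 1 when scaled), and 3 and 1 in goblet-enriched against enterocyte-enriched cells. Alas1, the first enzyme of the pathway, was highest in enterocyte-enriched cells, with 76.7 ± 7.64, 144 ± 15.8 and 93.5 ± 12.2 TPM. Cpox, a later enzyme of the pathway, was lowest there, with 63.6 ± 14.1, 18.8 ± 3.18 and 47.1 ± 5.42 TPM. In enterocyte-enriched against Lgr5-enriched cells the log2 fold changes were 0.62 for Alas1 (limma adjusted p = 0.00581) and -1.29 for Cpox (limma adjusted p = 0.000704).

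Of 20 genes of mitochondrial iron and iron-sulfur assembly, 0 were called higher and 9 lower in goblet-enriched against Lgr5-enriched cells (10.7% and 23.6% over all genes), 1 and 4 in enterocyte-enriched against Lgr5-enriched cells (1 and 7 with the replicate block), and 0 and 4 in goblet-enriched against enterocyte-enriched cells (2 and 5 with the block). Median-of-ratios scaling changed these to 0 and 2, 6 and 3, and 0 and 7. Slc25a28, which encodes the mitochondrial iron importer mitoferrin 2, had 37.0 ± 10.2 TPM in goblet-enriched, 41.2 ± 6.74 TPM in enterocyte-enriched and 87.8 ± 6.04 TPM in Lgr5-enriched cells. It was lower in goblet-enriched than in Lgr5-enriched cells, at -1.26 (limma adjusted p = 0.00238), and in enterocyte-enriched than in Lgr5-enriched cells, at -1.08 (limma adjusted p = 0.00277). Of 9 genes of cytosolic iron-sulfur assembly, 0 were called higher and 2 lower in goblet-enriched against Lgr5-enriched cells (0 and 6 with the block), 1 and 3 in enterocyte-enriched against Lgr5-enriched cells (1 and 5 with the block), and 1 and 1 in goblet-enriched against enterocyte-enriched cells (1 and 2 with the block). Median-of-ratios scaling changed these to 0 and 0, 1 and 0, and 1 and 2.

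**Figure D5:**
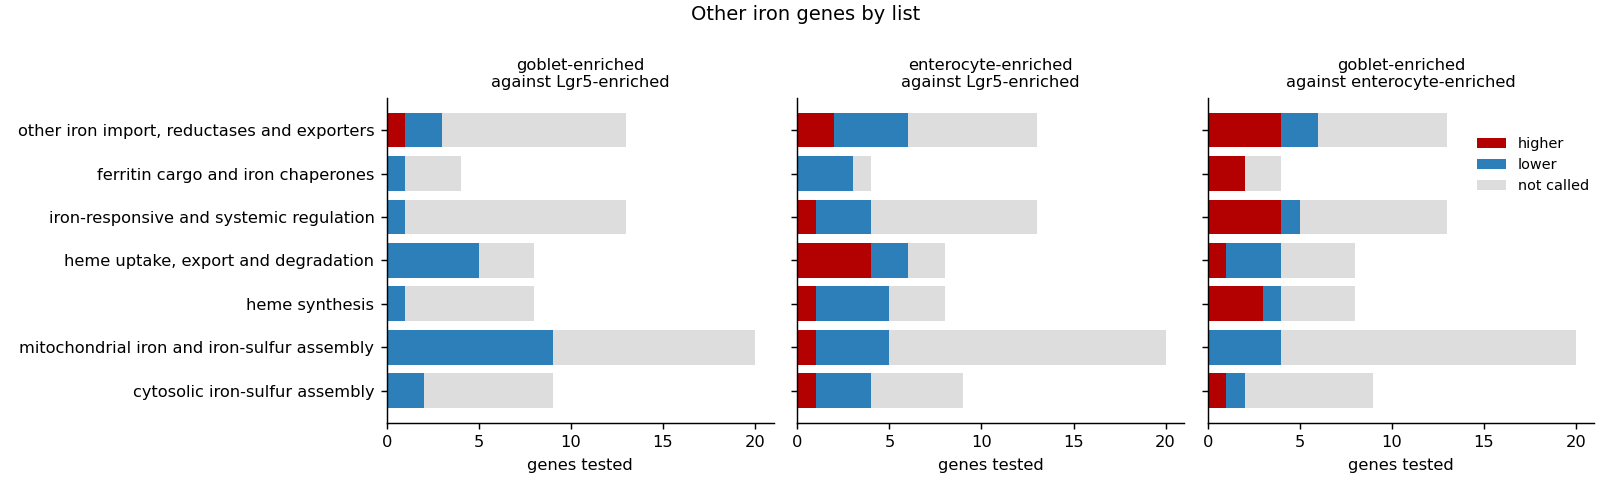
Number of tested genes in each of the 7 lists that were called higher (red), called lower (blue) or not called (grey) in each comparison by limma. Of the 20 mitochondrial genes, 0 were higher and 9 lower in goblet-enriched than in Lgr5-enriched cells (10.7% and 23.6% over all genes), which became 0 and 2 after median-of-ratios scaling.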

How the data were processed

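Poly-A mRNA was sequenced from 9 libraries, per the labels' protocols. The deposited table holds the authors' log2 values, 1 per symbol and library: the lowest is -1, values of 0 and above are log2(TPM), and values below 0 are TPM minus 1. After back-transformation every column summed to 1000000. The submitters' processing notes name Cufflinks, without a version, and mm10. Aligner, annotation and the use of strand in counting were not given in the sources used here. Dividing by the TPM of 1 read gave whole reads for 18386 of 18396 genes (99.95%; tolerance 1e-06), as lower bounds. Per library, 1 read in 1 kb of transcript came to between 0.0958 and 0.208 TPM. 0 columns were left unused.

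Genes that reached 1 TPM in 3 or more libraries entered a limma 3.58.1 fit (R 4.3.3) of log2(TPM + 1) (trend, 1 mean per population, 6 residual and 3.21 prior degrees of freedom), two-sided, with Benjamini-Hochberg adjustment within a comparison. This left out 5508 genes above 0. Fold changes on this scale understate the change of low genes. The fit was also run on simulated data with independent libraries and no replicate effect, so that run cannot check it for libraries that deviate together. Same-numbered libraries deviated together (9 of 9 pairs, r of 0.194 to 0.601), and the series text counts 3 mice, although enterocyte-enriched replicate 1 went against its sex label, so the replicate number was also fitted as a block.

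The members, the lists and the alternatives were chosen with earlier results of these data known. All members were named. From each list of other iron genes the rule gave up to 2 called genes per direction and comparison with the largest change and at least 5 TPM on average in the higher population, and a selection of these is printed; some genes that the rules name are not reported here, and marker genes are named for their roles. The p-values measure the spread between these libraries, which may mix mouse, sex and batch. Hairpins were searched in GENCODE M21 transcripts of GRCm38, and limits for counts of 0 cover counting error only.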

Additional observations from a re-analysis of the deposited data

How the results depend on the processing

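The limma fold changes and calls were recomputed under up to 18 alternatives. The Fth1 to Ftl1 ratio and the Trf means were recomputed only with single libraries left out. The permutation tests, correlations with Trf, marker sums, Cybrd1 values and hairpins were not recomputed. Slc40a1, Heph and Fth1 kept every call they had. Of the 6 iron genes, goblet-enriched against Lgr5-enriched cells gave 2 calls, but 1 under median-of-ratios scaling, without a filter and with only the libraries compared, and 1 to 2 when libraries were left out. Enterocyte-enriched against Lgr5-enriched cells gave 3, but 5 after quantile normalization, and 3 to 4 with each library left out in turn. Goblet-enriched against enterocyte-enriched cells gave 3, and 3 with each library left out in turn, but 5 without replicate 1 of all populations. Over all genes, goblet-enriched against Lgr5-enriched cells gave 4423 calls, and 2660 to 4598 with each library left out in turn, the fewest without Lgr5-enriched replicate 3, 5732 without replicate 1 of all populations and 6357 with the replicate block. Enterocyte-enriched against Lgr5-enriched cells gave 6396 over all genes, and 5078 to 6907 with each library left out in turn. Goblet-enriched against enterocyte-enriched cells gave 5687, and 4572 to 5899 in the same way. The counts of iron genes under the alternatives are given without the share over all genes, so their changes are no result about the set.

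Changes of sign were limited to Slc11a2 and Ftl1, which were not called. Slc11a2 in goblet-enriched against enterocyte-enriched cells was -0.16 with median-of-ratios, -0.14 with quantile and -0.05 with voom. Ftl1 was -0.09 with quantile in goblet-enriched against Lgr5-enriched and 0.16 with median-of-ratios in enterocyte-enriched against Lgr5-enriched cells. With libraries left out, Slc11a2 ranged from -0.19 to 0.27, -0.07 to 0.16 and -0.22 to 0.24 in the 3 comparisons, and Ftl1 from -0.06 to 0.08 in goblet-enriched against Lgr5-enriched cells. The causes were not tested. The replicate block changed no member's call other than that of Tfrc (adjusted p = 0.0178 in enterocyte-enriched against Lgr5-enriched cells). From the other iron lists, only the genes taken by the naming rule were recomputed singly. Of their 953 values, 853 kept their call, 100 lost it and 0 changed sign. These genes were taken as called and with the largest changes, so that a kept sign was nearly fixed in advance. Genes of the lists that were not called were not in this check. Depth limits Cybrd1 alone among the members.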

Other observations

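Some genes of iron binding and inflammation among the other iron lists, and the hypoxia gene Egln3, had their highest values in replicate 1. They were singled out after their values were seen. Steap4, a metalloreductase induced in inflammation, had 8.54, 1.87 and 1.79 TPM in goblet-enriched replicates 1, 2 and 3, 13.8, 0.462 and 1.83 TPM in enterocyte-enriched replicates, and 18.3, 1.12 and 2.77 TPM in Lgr5-enriched replicates. Replicate 1 was thus the highest in every population. Lcn2, whose product lipocalin 2 keeps iron from bacteria by binding their siderophores, had 1.85, 0 and 0 TPM in goblet-enriched, 2.93, 0.510 and 0.613 TPM in enterocyte-enriched, and 26.7, 0 and 1.25 TPM in Lgr5-enriched replicates. Ltf, which encodes the iron-binding protein lactoferrin, reached 6.68 TPM in enterocyte-enriched replicate 1, against 0.106 and 0.445 TPM in replicates 2 and 3. Egln3, a target of hypoxia-inducible factors, had 19.5, 9.13 and 13.0 TPM in goblet-enriched, 74.9, 21.9 and 23.2 TPM in enterocyte-enriched, and 31.4, 14.0 and 17.2 TPM in Lgr5-enriched replicates, again highest in replicate 1 throughout. Other hypoxia genes did not share this. Egln2 was lowest in replicate 1 of every population, with 58.3, 83.8 and 80.7 TPM in goblet-enriched, 72.7, 89.5 and 79.9 TPM in enterocyte-enriched, and 61.8, 90.1 and 81.7 TPM in Lgr5-enriched replicates. Epas1 was lowest in replicate 1 of the goblet-enriched and Lgr5-enriched libraries, whereas Hif1a was highest there. Among the members other than Cybrd1, replicate 1 had no common position. It was the highest goblet-enriched library for Tfrc, Slc11a2 and Heph. It was also the highest enterocyte-enriched one for Trf, Slc40a1 and Heph, and the highest Lgr5-enriched one for Trf, Tfrc and Slc11a2. In goblet-enriched cells it was the lowest for Slc40a1, Fth1 and Ftl1, and in enterocyte-enriched cells for Tfrc and Ftl1. In Lgr5-enriched cells it was the lowest for Slc40a1, Heph and Fth1. Some margins were small, as for Heph in Lgr5-enriched cells (30.1 against 30.6 and 30.8 TPM). Replicate 1 was not compared by a test.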
